A study of Mus musculus and Rattus norvegicus with 30 samples.

Results

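The complement genes described here were 9 components and receptors, C1qa, C1qb, C1qc, C3, C4b, Cfb, Serping1, C3ar1 and C5ar1, taken by gene symbol from RNA sequencing of dorsal root ganglion (DRG), the ganglion that holds the cell bodies of sensory neurons. They were 9 of 54315 features listed in the mouse table and 9 of 39281 in the rat table. In mice, L3 and L4 DRG of 1 adult animal made 1 library, 28 days after spared nerve injury (SNI, which severs the common peroneal and sural nerves and leaves the tibial nerve whole) or sham surgery. The BALB/c sham group held 6 libraries (3 male, 3 female), BALB/c SNI 4 (2 male, 2 female), B10.D2 sham 5 (3 male, 2 female) and B10.D2 SNI 5 (2 male, 3 female). In rats, each library pooled L5 DRG of 3 male Wistar animals 21 days after L5 spinal nerve transection (SNT) or sham surgery, with 4 libraries in each group. The mice of both strains came from a commercial breeder, and each rat library stands for a pool, not an animal. Rat libraries are named A to D in each group, and a shared letter marks a shared run label. Ganglia ipsilateral to the injury hold cut and uncut neurons together with satellite glia, Schwann cells, fibroblasts, vessels and immune cells, so every value is an average over those cells, and more cells of a type cannot be told apart from more RNA per cell.

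Complement is a proteolytic cascade of innate immunity. C1q, a hexamer of trimers built from the C1qa, C1qb and C1qc chains, recognises bound antibody and other surfaces and starts the classical pathway through the proteases C1r and C1s, which cleave C4 and C2. C4b and the C2 fragment form the convertase that cleaves C3, the central component, and factor B (Cfb) supplies the protease of the alternative pathway convertase. C1 inhibitor (Serping1) blocks C1r and C1s, and the fragments C3a and C5a act on the G protein-coupled receptors C3ar1 and C5ar1, which myeloid cells carry. In the nervous system C1q is made mainly by macrophages and microglia and has been tied to the tagging of synapses for removal.

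Total counts were 29989963 to 41881331 per mouse library and 11954612 to 17887909 per rat library. Levels are given as CPM, counts scaled to a common library total, with TMM-scaled library sizes. Of 8 genes known to be induced in injured sensory neurons, all 8 were higher after SNI in both mouse strains, and the 5 tested in rat were higher after SNT, as the labels say. Their summed level was 577 to 725 CPM in BALB/c SNI and 277 to 487 CPM in B10.D2 SNI. In rat, where Atf3 and Gap43 were listed at 0, the sum was 195, 219 and 648 CPM (lowest, median and highest) in sham. After SNT it was 789 to 1157 CPM, so the groups did not overlap, but the highest sham value lay nearer to the SNT range than to the sham median. In rat, sham library D and SNT library A stood between the groups on the first principal component, at -6.33 and 1.09, where the other sham libraries lay between -48.7 and -35.7 and the other SNT libraries between 30.6 and 49.9. Fold changes of the rat members are therefore also given without these libraries. This choice was made after seeing the data and takes out the libraries nearest the other group. Such values are no further support for a call. C4b and Cfb were listed at 0 in all 8 rat libraries, as were 17 of the 41 other complement genes and 6 of the 13 macrophage markers of that species, so nothing is reported of them in rat. All 9 members passed the filter on low counts in mouse and 7 of 9 in rat.

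In the mouse genome (mm10, GENCODE M21) all 9 members are protein-coding genes on the minus strand. The C1q genes are neighbours on chromosome 4, with C1qb (ENSMUSG00000036905) at chr4:136880129-136886187, C1qc (ENSMUSG00000036896) at chr4:136889804-136893065 and C1qa (ENSMUSG00000036887) at chr4:136895917-136898803. Chromosome 17 holds C4b (ENSMUSG00000073418) at chr17:34728380-34743882, Cfb (ENSMUSG00000090231) at chr17:34856374-34862518, both in the major histocompatibility complex, and C3 (ENSMUSG00000024164) at chr17:57203970-57228136. Serping1 (ENSMUSG00000023224) lies at chr2:84765387-84775444, C3ar1 (ENSMUSG00000040552) at chr6:122847138-122856161 and C5ar1 (ENSMUSG00000049130) at chr7:16246743-16259540. Of these, Cfb alone shared exon bases with another annotated gene, the same-strand Gm20547, which covers 79.5% of its exon bases and had 0 counts in every library. Reads that fit both genes may have been counted for neither, so the Cfb count may be too low, which was not tested. C4b shared 16.5% of its 100-base transcript windows with its close copy C4a. The study used uniquely mapped read pairs, so reads alike in both copies may be lost or misplaced, which leaves the C4b count uncertain. The other 7 members shared no such window with another gene.

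Promoter windows, from 250 bases before to 50 after the start of transcription, were held for 5 members (C1qb, C1qc, C3, C3ar1 and C5ar1) in the RefSeq table for GRCm38.p6. The windows of C1qb and C1qc are shown because these adjacent genes had the widest strain differences among the C1q chains, and that of C3 because it is the component on which the pathways converge. Capitals mark the PU.1 core GAGGAA on either strand, PU.1 being a transcription factor of the myeloid lineage. The C1qb window is chr4:136886151-136886450, the C1qc window chr4:136892865-136893164 and the C3 window chr17:57228087-57228386, all on the minus strand and written 5′ to 3′.
C1qb: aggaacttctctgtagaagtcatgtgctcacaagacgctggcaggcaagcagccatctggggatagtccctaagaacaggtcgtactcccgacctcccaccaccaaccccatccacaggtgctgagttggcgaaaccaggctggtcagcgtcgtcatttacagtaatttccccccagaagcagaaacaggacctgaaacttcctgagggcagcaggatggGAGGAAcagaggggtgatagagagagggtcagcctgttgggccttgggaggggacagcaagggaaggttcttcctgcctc
C1qc: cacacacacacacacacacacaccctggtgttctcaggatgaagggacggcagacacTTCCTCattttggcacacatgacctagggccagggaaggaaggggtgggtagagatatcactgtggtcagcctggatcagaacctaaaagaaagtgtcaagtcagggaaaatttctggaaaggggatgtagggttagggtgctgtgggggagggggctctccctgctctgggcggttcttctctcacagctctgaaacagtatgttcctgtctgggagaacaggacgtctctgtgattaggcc
C3: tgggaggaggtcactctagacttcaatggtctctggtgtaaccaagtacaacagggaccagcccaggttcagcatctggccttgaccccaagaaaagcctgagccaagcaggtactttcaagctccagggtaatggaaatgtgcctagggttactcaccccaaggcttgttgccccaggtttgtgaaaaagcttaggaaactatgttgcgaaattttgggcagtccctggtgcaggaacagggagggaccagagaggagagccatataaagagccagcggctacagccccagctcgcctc
The core was found once in the C1qb window, starting 30 bases before the start site, and once on the other strand in the C1qc window, 193 bases before it. It was in neither the C3 window nor those of C3ar1 and C5ar1, and 28.3% of 32851 promoter windows of this length hold it. GAAANNGAA, an interferon regulatory factor type of element, occurred once among the 5 windows, in C5ar1, and in 8.56% of all windows. The STAT element TTCNNNGAA occurred in none of the 5 and in 8.3% of all. These matches are letters in a window and were not tested for binding.

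Per kilobase of exon, the level over the 20 mouse libraries was highest for Serping1, at 47.0 ± 9.32 CPM per kilobase (mean ± SD, n = 20), followed by C1qa at 23.7 ± 8.11, C4b at 16.3 ± 5.43 and C1qb at 14.5 ± 6.96. C1qc followed at 9.07 ± 3.28 CPM per kilobase and C3 at 3.69 ± 1.53. The receptors and Cfb were lowest, with C3ar1 at 1.18 ± 0.373, Cfb at 0.489 ± 0.200 and C5ar1 at 0.471 ± 0.185 CPM per kilobase. The regulator was therefore above every component in this tissue, and Cfb and C5ar1 had the lowest levels as counted. The Cfb level is uncertain through the exon bases it shares with Gm20547. The order of C4b and C1qb differed by strain, with C4b higher in 10 of 10 BALB/c libraries (14.4 ± 4.44 against 9.16 ± 2.91 CPM per kilobase) and C1qb higher in 9 of 10 B10.D2 libraries (19.8 ± 5.60 against 18.3 ± 5.82, within the spread). Cfb was above C5ar1 in 5 of 10 BALB/c and 8 of 10 B10.D2 libraries, so this pair was not ranked. C1qa was above C4b in 19 of 20 libraries, and with these exon lengths every other neighbouring pair kept its order in 20 of 20. Exon lengths come from GENCODE M21 and the counts from an older Ensembl annotation. The lengths join the exons of all annotated transcripts, 1931 bases for C1qc and 1088 for C1qb. The longest C1qc transcript is shorter, with 1104 windows of 100 bases beside 989 for C1qb. The order of C1qb and C1qc therefore depends on the length used.

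**Figure D1:**
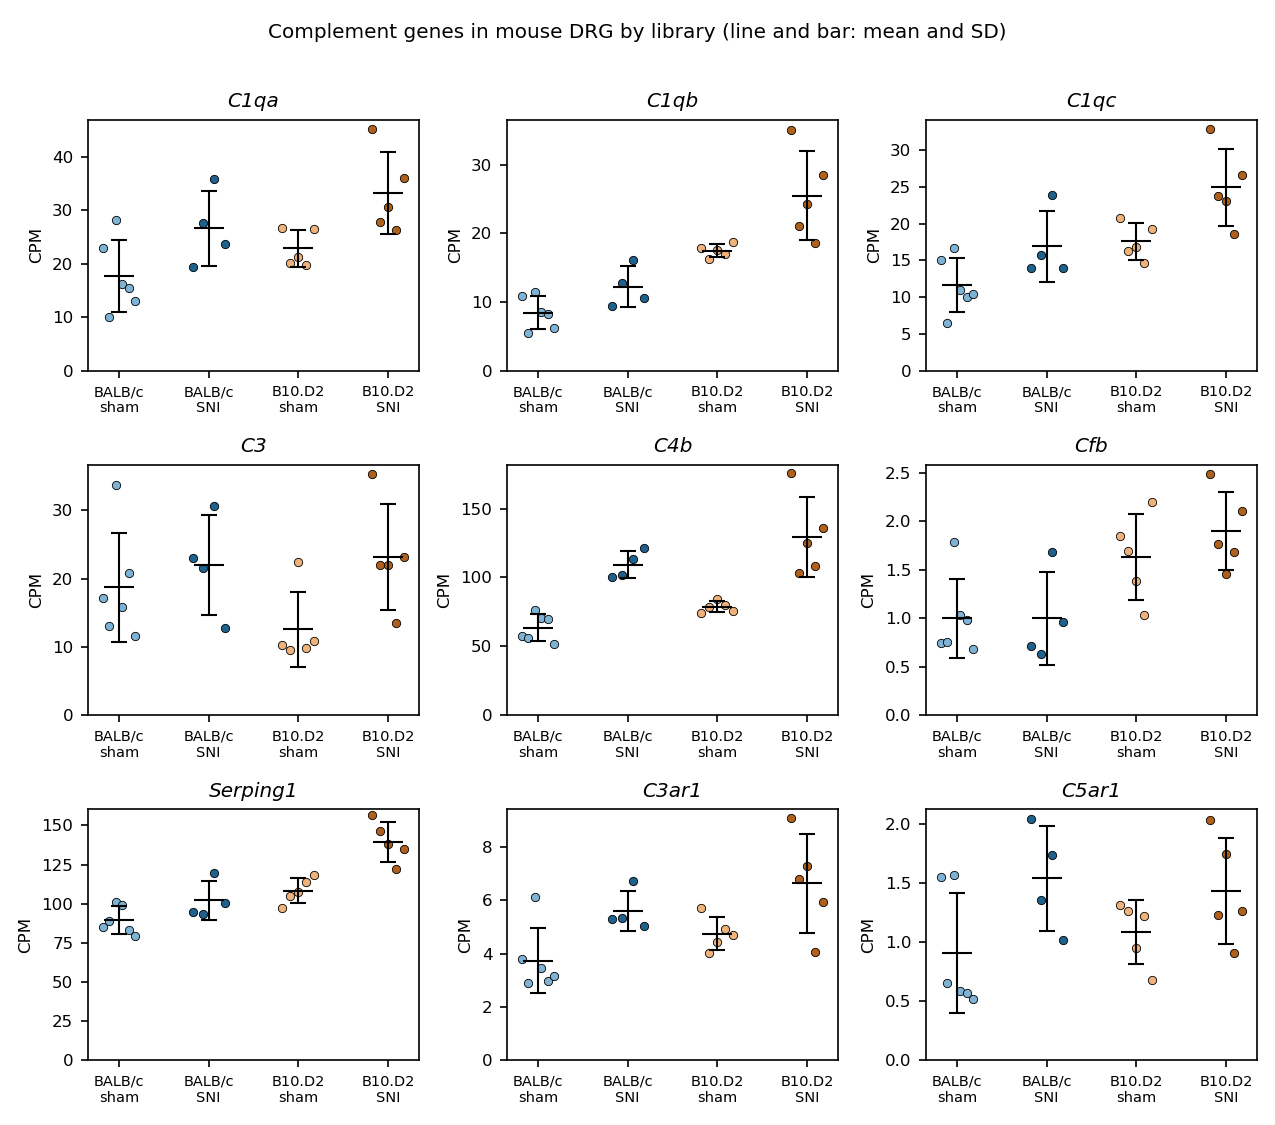
CPM of each of the 9 complement genes in the 20 mouse libraries. Each point is a library, and lines and bars give the mean and SD of each group. The 10 B10.D2 libraries lie above all 10 BALB/c libraries for C1qb, and SNI libraries lie above the sham libraries of their own strain for C4b.

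Nerve injury raised few of these genes past the threshold of adjusted p under 0.05 (edgeR, adjusted over all features tested). In BALB/c mice 2 of 9 rose, C4b and C3ar1, and none fell, where 9.69% of 24685 features were called and 4.79% rose. In B10.D2 mice 2 of 9 rose, C4b and Serping1, where 4.62% of features were called and 2.11% rose. The median log2 fold change of the 9 members was 0.54 in BALB/c and 0.46 in B10.D2, beside 0.0033 and 0.0076 over all features. In rat 3 of the 7 members tested rose after SNT, C3, C3ar1 and Serping1, where 27.5% of 13690 features were called and 12.3% rose, and the median over the 7 was 1.15, beside 0.0027 over all features.

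More members were called between the strains than after SNI within a strain, as was so over all features. There 21.3% and 20.6% were called between the strains, against 9.69% and 4.62% after SNI. Under sham conditions 4 of 9 were higher in B10.D2 than in BALB/c, C1qb, C1qc, C4b and Serping1, and none was lower, where 21.3% of features were called and 11.4% were higher in B10.D2. After SNI 3 of 9 were higher in B10.D2, C1qb, Cfb and Serping1, where 20.6% of features were called and 10.8% were higher. The median log2 difference over the 9 members was 0.39 in sham and 0.31 after SNI, beside -0.0063 and -0.0069 over all features. No member had an injury change that differed between the strains. In the interaction test 0 of 9 passed the threshold and 0 of 9 had an unadjusted edgeR p under 0.05, where 0.0162% of features were called and 4.23% had such a p, and DESeq2 also called 0 of 9, where it called 0.0254%. The interaction estimates ran from -0.39 ± 0.45 (SE) for C5ar1 to 0.52 ± 0.38 for C3 on the log2 scale, so differences in the injury change of that size were not detectable with these libraries.

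**Figure D2:**
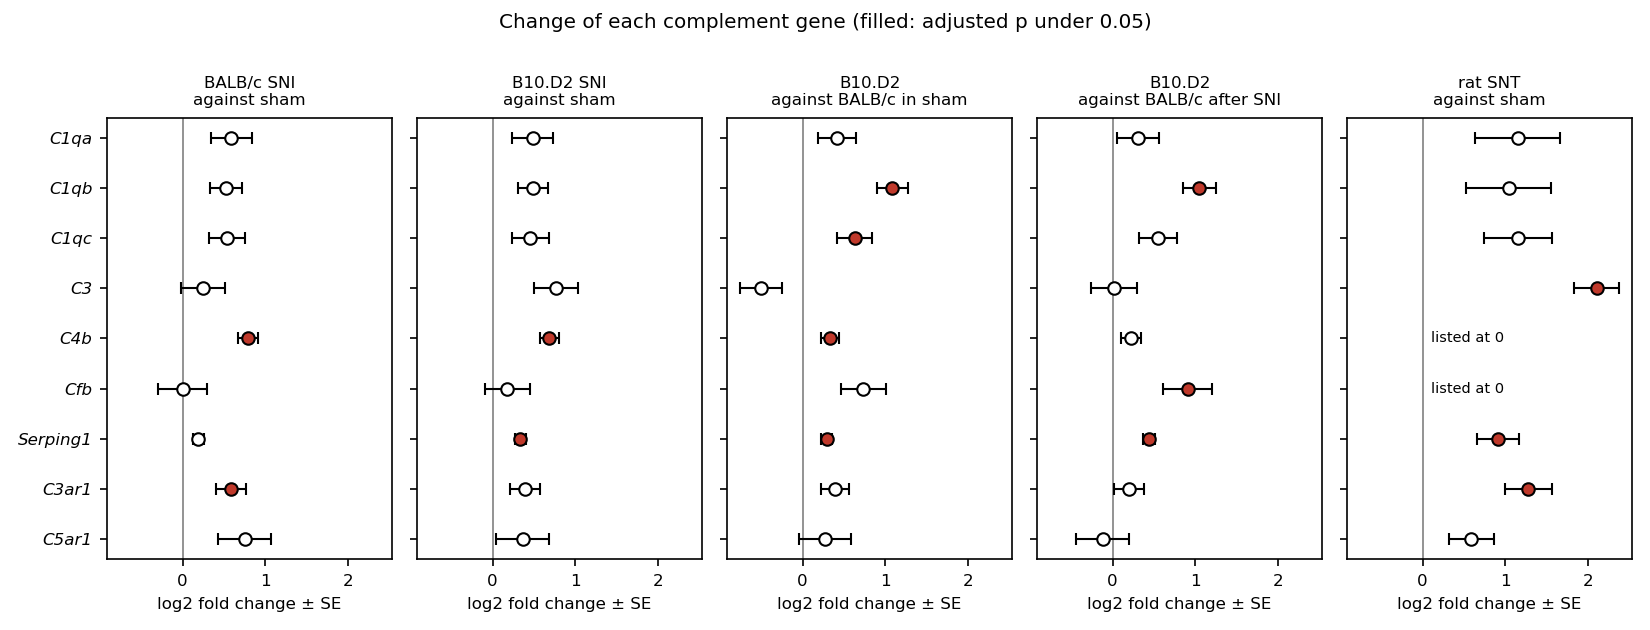
log2 fold change with its SE for each gene in the 5 comparisons, filled where the adjusted p is under 0.05. The 3 C1q chains moved by similar amounts after injury, from 0.46 to 0.59 in mice, while between the strains C1qb had the larger difference, at 1.09 in sham.

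For the C1q chains, the strain difference was carried mostly by C1qb. C1qb was 5.44, 8.37 and 11.4 CPM (lowest, median and highest) in BALB/c sham. In B10.D2 sham it was 16.3 CPM in library 60, 17.1 in 77, 17.5 in 67, 17.9 in 58 and 18.7 in 88. All B10.D2 sham libraries were therefore above all BALB/c sham libraries. After SNI it was 9.37, 10.5, 12.8 and 16.2 CPM in BALB/c libraries 49, 70, 64 and 65. It was 18.6, 21.1, 24.2, 28.5 and 35.1 CPM in B10.D2 libraries 89, 76, 78, 90 and 69. Again the strains did not overlap. The log2 difference was 1.09 ± 0.18 (SE) in sham (edgeR adjusted p = 0.000213) and 1.05 ± 0.20 after SNI (edgeR adjusted p = 0.000852).

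C1qa and C1qc differed less between the strains. C1qa was 10.05, 15.8 and 28.3 CPM (lowest, median and highest) in BALB/c sham. In B10.D2 sham it was 19.8, 20.1, 21.3, 26.5 and 26.7 CPM, within the BALB/c range. C1qc was 6.54, 10.7 and 16.7 CPM (lowest, median and highest) in BALB/c sham. In B10.D2 sham it was 14.7, 16.2, 16.9, 19.3 and 20.8 CPM, with 2 of the BALB/c libraries inside that range. The sham log2 difference was 0.41 ± 0.23 for C1qa (edgeR adjusted p = 0.25) and 0.63 ± 0.21 for C1qc (edgeR adjusted p = 0.043). The C1qc call did not hold without any 1 of BALB/c sham libraries 51, 56, 57 and 71 or B10.D2 sham libraries 58, 60, 67 and 88, where the log2 difference was 0.50 to 0.68 (edgeR adjusted p = 0.056 to 0.11), nor in a fit of the sham libraries alone (edgeR adjusted p = 0.10). After SNI the log2 differences were 0.31 ± 0.25 and 0.55 ± 0.23 (edgeR adjusted p = 0.46 and 0.11), and C1qc passed the threshold without BALB/c SNI library 65 (0.74, edgeR adjusted p = 0.045).

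The uneven strain difference within C1q also showed inside single libraries, as a ratio of counts that does not depend on library size. The C1qb count over the C1qa count was 0.404 to 0.541 in BALB/c sham and 0.444 to 0.483 in BALB/c SNI. It was 0.670 to 0.862 in B10.D2 sham and 0.705 to 0.792 in B10.D2 SNI, so the 10 libraries of one strain and the 10 of the other did not overlap. The C1qc over C1qa ratio was 0.571 to 0.796 in BALB/c and 0.704 to 0.851 in B10.D2, with overlap. These ratios were formed after the levels had been seen and are a description without a test. B10.D2 is a congenic line on a C57BL/10 background, which outside the congenic segment is close to the reference genome the reads were aligned to. BALB/c is more distant from that reference. Whether alignment moved these C1q ratios was not tested, and the remark does not extend to C4b and Cfb in the major histocompatibility complex.

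**Figure D3:**
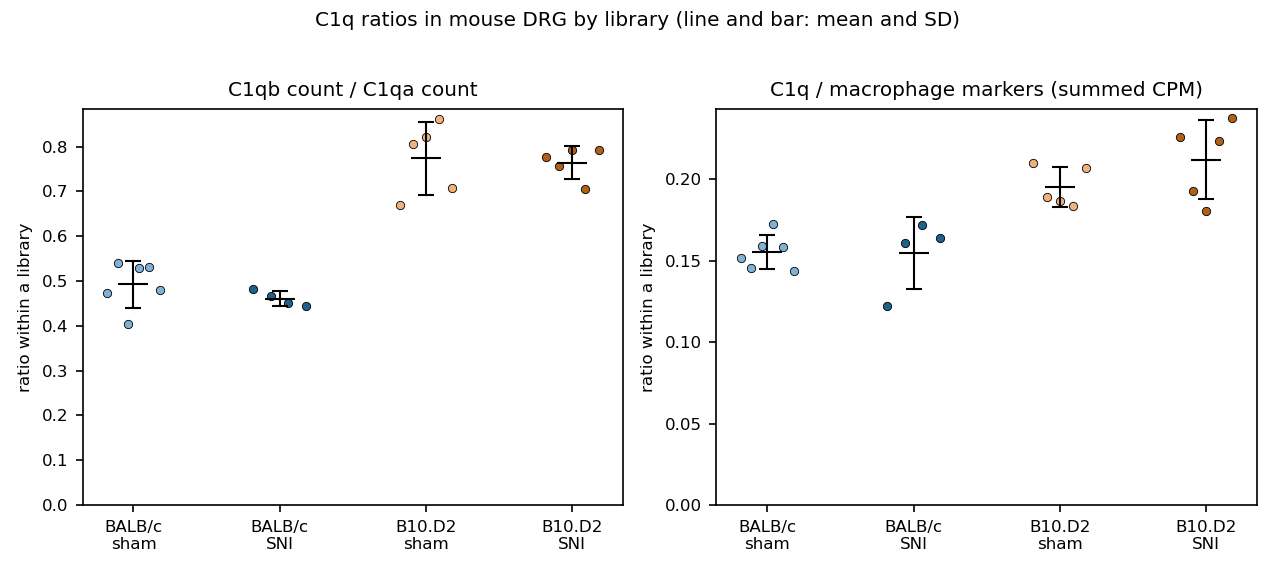
Ratios within each mouse library. The left panel gives C1qb counts over C1qa counts, and the right panel the summed CPM of the 3 C1q chains over the summed CPM of 14 macrophage marker genes. Points are libraries, lines and bars the mean and SD of each group. In both panels every B10.D2 library lies above every BALB/c library.

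After SNI the C1q chains were higher on average in both mouse strains, but none passed the threshold. C1qa was 19.4, 23.7, 27.6 and 36.0 CPM in BALB/c SNI libraries 49, 70, 64 and 65. It was 26.4, 27.9, 30.6, 36.0 and 45.2 CPM in B10.D2 SNI libraries 89, 76, 78, 90 and 69. In each strain the injured libraries overlapped the sham libraries, reaching higher. C1qc was 13.9, 14.04, 15.7 and 24.0 CPM in BALB/c SNI. It was 18.6, 23.1, 23.7, 26.6 and 32.9 CPM in B10.D2 SNI, again overlapping sham. The BALB/c log2 fold changes were 0.59 ± 0.24 for C1qa, 0.53 ± 0.19 for C1qb and 0.54 ± 0.22 for C1qc (edgeR adjusted p = 0.16, 0.10 and 0.15). The B10.D2 values were 0.48 ± 0.24, 0.49 ± 0.19 and 0.46 ± 0.22 (edgeR adjusted p = 0.34, 0.17 and 0.31). In BALB/c, C1qa passed the threshold without sham library 55 (0.77, edgeR adjusted p = 0.047) and C1qb without sham library 50 (0.65, edgeR adjusted p = 0.030), and with DESeq2 (0.52, adjusted p = 0.033).

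Within each strain the summed C1q level and the summed macrophage markers were both higher on average after SNI. The 14 markers summed to 151 to 355 CPM in BALB/c sham, 294 to 443 in BALB/c SNI, 278 to 311 in B10.D2 sham and 284 to 501 in B10.D2 SNI, and none was at 0 in a group. Of the 14, 6 rose after SNI in BALB/c (Cd68, Trem2, Laptm5, Tyrobp, Ctss and Cx3cr1), 3 rose in B10.D2 (Trem2, Tyrobp and Ctss), and none fell. Between the strains 5 were higher in B10.D2 in sham and 3 after SNI. Over all features 9.69% and 4.62% were called after SNI in BALB/c and B10.D2, and 21.3% and 20.6% between the strains in sham and after SNI. C1q over the macrophage sum was 0.155 ± 0.0105 (SD, n = 6) in BALB/c sham and 0.155 ± 0.0222 (n = 4) in BALB/c SNI. It was 0.195 ± 0.0123 (n = 5) in B10.D2 sham and 0.212 ± 0.0241 (n = 5) in B10.D2 SNI. The ratio overlapped between sham and injured libraries in each strain, while no B10.D2 library (0.181 to 0.238) fell in the BALB/c range (0.122 to 0.172). The marker list covers macrophages and other myeloid cells, and its sum is unweighted. Lyz2 had the highest counts of the 14, at 2041 to 6180 per library, and C1qb differed most between the strains among the chains. The ratio thus leans on these genes and is not a measure of C1q per macrophage. The part of macrophage number in the C1q levels was not tested. Of 4 T cell markers 3 were higher in B10.D2 in sham, with sums of 1.58 to 2.56 against 0.752 to 1.26 CPM, and 1 after SNI, where the sums overlapped. Endothelial markers had 3 of 5 lower in B10.D2 in both conditions, with sums of 89.1 to 105 against 98.4 to 125 CPM in sham. Neutrophil markers had 5 of 5 lower in B10.D2 than in BALB/c after SNI and sums of 17.97 to 37.0 against 62.4 to 385 CPM. The B cell list had 3 of 4 lower in B10.D2 after SNI. Muscle markers reached 1146 CPM in 1 BALB/c sham library and 448 CPM in 1 BALB/c SNI library, against at most 31.6 CPM in B10.D2. The part of these cells in the members' levels was not tested.

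In rat the C1q chains hinged on 1 sham library. C1qa was 31.6, 34.4, 52.6 and 170 CPM in sham libraries B, C, A and D. After SNT it was 136, 143, 166 and 195 CPM in libraries D, A, B and C. Sham library D was at the level of the injured libraries and the other 3 sham libraries were far below them. C1qb had the same pattern, at 24.6, 27.7, 48.5 and 134 CPM in sham and 93.7, 105, 128 and 157 CPM after SNT. C1qc was 35.4, 37.5, 64.6 and 137 CPM in sham and 124, 139, 159 and 190 CPM after SNT. With all 8 libraries the log2 fold changes were 1.15 ± 0.52, 1.04 ± 0.51 and 1.15 ± 0.41 for C1qa, C1qb and C1qc (edgeR adjusted p = 0.13, 0.16 and 0.064), and DESeq2 called C1qc (adjusted p = 0.00862). Without sham library D all 3 chains passed, at 2.03, 1.86 and 1.75 (edgeR adjusted p = 0.000386, 0.0020 and 0.00133), and without sham D and SNT A they were 2.08, 1.92 and 1.79. Either way 6 of the 7 members tested were called, where the share of all features called also rose, from 27.5% to 34.4% without sham D and to 43.9% without both. The macrophage markers with counts summed to 404 to 1660 CPM in sham and 1423 to 2051 CPM after SNT, with the highest sham value again in library D. C1q over that sum was 0.227 to 0.266 in sham and 0.249 to 0.264 after SNT. Lyz2 made up most of the rat sum, with 4405 to 30722 counts per library. Of the 7 macrophage markers tested 2 rose. Other cell types' markers moved as well: 2 of 3 fibroblast markers tested rose, with sums of 2976 to 5330 CPM in sham and 6619 to 10775 CPM after SNT, while Col1a1 and Pdgfra were listed at 0. The T cell list summed to 33.3 to 85.1 CPM in sham and 99.95 to 151 CPM after SNT, and 2 of 3 tested rose. Cd4 made up most of that sum, with 454 to 2542 counts per library against at most 37 for Cd3e, 21 for Cd3d and 152 for Cd8a. The sum therefore mainly followed Cd4 and is not a measure of T cells as a whole. Of 4 neuron markers tested 3 fell, with sums of 5116 to 7624 CPM in sham and 3721 to 6584 CPM after SNT, with overlap. The part of these cells in the rat changes was not tested.

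**Figure D4:**
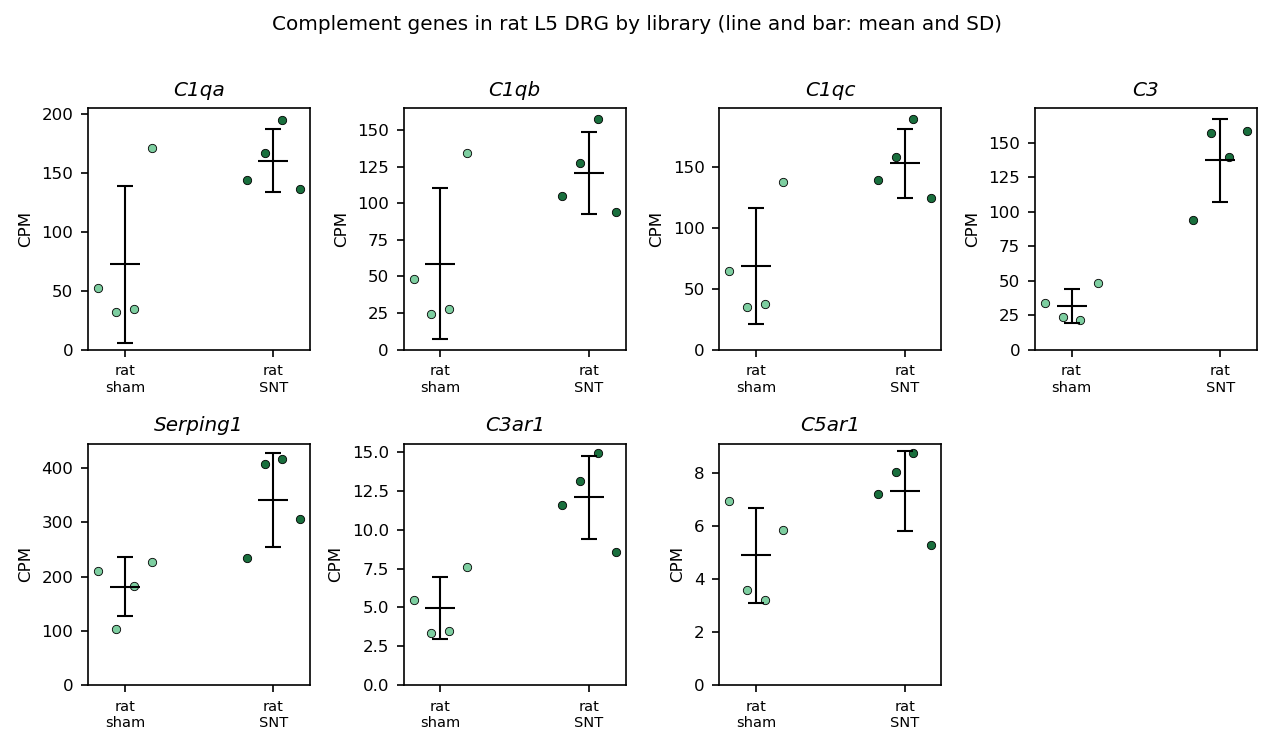
CPM of the 7 complement genes with counts in the rat L5 DRG libraries, 4 sham and 4 SNT. Points are libraries, lines and bars the mean and SD. The SNT libraries lie above all sham libraries for C3, C3ar1 and Serping1, and 1 sham library reaches the SNT level for the C1q chains.

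C4b, the classical and lectin pathway component cleaved by C1s, gave the most even injury response in mice. It was 51.8, 63.5 and 76.1 CPM (lowest, median and highest) in BALB/c sham and 101, 101, 114 and 121 CPM in BALB/c SNI libraries 49, 64, 65 and 70. It was 74.3, 75.4, 78.8, 80.3 and 84.2 CPM in B10.D2 sham. After SNI it was 103, 108, 125, 136 and 176 CPM in B10.D2 libraries 76, 89, 78, 90 and 69. In each strain every injured library was above every sham library. C4b rose by a log2 fold change of 0.79 ± 0.12 in BALB/c (1.73-fold, edgeR adjusted p = 0.000189) and 0.69 ± 0.12 in B10.D2 (1.61-fold, edgeR adjusted p = 0.00155), and both calls held without any 1 library, at 0.70 to 0.85 and 0.58 to 0.77. The sham strain difference of 0.33 ± 0.11 (edgeR adjusted p = 0.041) was lost without any 1 of the 11 sham libraries but BALB/c 55, at 0.29 to 0.35 (edgeR adjusted p = 0.053 to 0.094), without the sex term (0.31, edgeR adjusted p = 0.085) and without the filter on low counts (0.33, edgeR adjusted p = 0.093). After SNI it was 0.22 ± 0.12 (edgeR adjusted p = 0.23).

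C3, the component on which all pathways converge, varied widely between mouse libraries. It was 11.6, 16.5 and 33.7 CPM (lowest, median and highest) in BALB/c sham and 12.7, 21.6, 23.1 and 30.6 CPM in BALB/c SNI. In B10.D2 sham it was 9.53, 9.90, 10.3 and 10.9 CPM in 4 libraries and 22.4 in library 67. After SNI it was 13.6, 21.9, 22.0, 23.1 and 35.3 CPM in B10.D2. Injured and sham libraries overlapped in both strains, in B10.D2 through library 67. The log2 fold change was 0.25 ± 0.26 in BALB/c and 0.77 ± 0.27 in B10.D2 (edgeR adjusted p = 0.64 and 0.13), and the strain difference was -0.50 ± 0.26 in sham and 0.018 ± 0.27 after SNI (edgeR adjusted p = 0.20 and 0.98). In rat C3 had the largest change of the members. It was 21.7, 23.5, 34.1 and 48.7 CPM in sham libraries C, B, A and D and 94.2, 140, 157 and 158 CPM in SNT libraries A, C, B and D. The groups did not overlap, and C3 rose by 2.10 ± 0.27 on the log2 scale (4.30-fold, edgeR adjusted p = 0.00961), or by 2.53 ± 0.17 without sham D and SNT A.

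Cfb, the alternative pathway protease, had low counts, at 22 to 91 per mouse library, which may leave out reads shared with Gm20547. It was 0.685, 0.868 and 1.79 CPM (lowest, median and highest) in BALB/c sham and 0.627, 0.713, 0.964 and 1.68 CPM in BALB/c SNI. In B10.D2 it was 1.04, 1.39, 1.69, 1.84 and 2.20 CPM in sham and 1.45, 1.69, 1.76, 2.10 and 2.48 CPM after SNI. The B10.D2 libraries were mostly higher, with 1 BALB/c library in each condition inside their range. The log2 strain difference was 0.74 ± 0.27 in sham (edgeR adjusted p = 0.059) and 0.91 ± 0.30 after SNI (edgeR adjusted p = 0.033). The latter was lost without any 1 of BALB/c SNI libraries 49, 64 and 70 or B10.D2 SNI libraries 69, 89 and 90, at 0.70 to 0.94 (edgeR adjusted p = 0.051 to 0.13), and without the filter on low counts (0.91, edgeR adjusted p = 0.051). The sham difference passed without BALB/c sham 55 or B10.D2 sham 77, at 0.96 and 0.93 (edgeR adjusted p = 0.00754 and 0.018), and with DESeq2 (0.75, adjusted p = 0.042). The injury change was 0.00057 ± 0.30 in BALB/c and 0.17 ± 0.27 in B10.D2 (edgeR adjusted p = 0.9998 and 0.82), an estimate that turned negative in either strain without some single libraries.

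Serping1, the C1 inhibitor, was precise enough for small differences to be seen. It was 79.5, 87.0 and 101 CPM (lowest, median and highest) in BALB/c sham and 93.2, 94.8, 100.5 and 120 CPM in BALB/c SNI. In B10.D2 it was 97.2, 105, 107, 114 and 118 CPM in sham and 122, 135, 138, 146 and 156 CPM after SNI. Every B10.D2 SNI library was above every other mouse library. Serping1 rose after SNI in B10.D2 by 0.34 ± 0.070 on the log2 scale (1.26-fold, edgeR adjusted p = 0.00535), and the BALB/c value was 0.19 ± 0.070 (edgeR adjusted p = 0.095), which passed without BALB/c SNI library 64 (0.25, edgeR adjusted p = 0.040). The difference between these changes was 0.14 ± 0.099, within error (edgeR adjusted p = 1). B10.D2 was above BALB/c by 0.29 ± 0.066 in sham (edgeR adjusted p = 0.0021) and 0.44 ± 0.074 after SNI (edgeR adjusted p = 0.000108). In rat it was 104, 183, 211 and 227.7 CPM in sham and 233.98, 306, 408 and 418 CPM after SNT, without overlap. It rose by 0.91 ± 0.26 (1.88-fold, edgeR adjusted p = 0.028), a call lost without any 1 of sham libraries A and C or SNT libraries B, C and D, at 0.82 to 1.01 (edgeR adjusted p = 0.052 to 0.079), and with run as a replicate block (0.94, edgeR adjusted p = 0.077). Without sham D, the highest sham library, and SNT A, the lowest SNT library, the rise was 1.19 ± 0.24 (edgeR adjusted p = 0.00337). Leaving out this pair widens the difference in itself, so that value does not restore the call.

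C3ar1, the C3a receptor, had a higher mean after injury in both mouse strains and in rat. It was 2.88, 3.31 and 6.13 CPM (lowest, median and highest) in BALB/c sham and 5.05, 5.32, 5.34 and 6.71 CPM in BALB/c SNI, where sham library 55 alone reached the injured range. In B10.D2 it was 4.04, 4.43, 4.68, 4.92 and 5.70 CPM in sham and 4.07, 5.94, 6.79, 7.30 and 9.10 CPM after SNI, with overlap. The log2 fold change was 0.59 ± 0.18 in BALB/c (edgeR adjusted p = 0.042), while that of B10.D2 was 0.39 ± 0.18 (edgeR adjusted p = 0.27). The BALB/c call was lost without any 1 of sham libraries 51, 56, 57 and 71 or of SNI libraries 49, 64, 65 and 70, at 0.51 to 0.65 (edgeR adjusted p = 0.054 to 0.14), and without sham library 55 it was 0.76 (edgeR adjusted p = 0.0027). The strain difference was 0.39 ± 0.17 in sham and 0.20 ± 0.19 after SNI (edgeR adjusted p = 0.12 and 0.52), and the sham value passed without BALB/c sham 55 (0.55, edgeR adjusted p = 0.00997). In rat it was 3.35, 3.49, 5.47 and 7.62 CPM in sham and 8.59, 11.6, 13.2 and 15.0 CPM after SNT. The rat groups did not overlap, and C3ar1 rose by 1.28 ± 0.28 (2.43-fold, edgeR adjusted p = 0.014), or by 1.59 ± 0.27 without sham D and SNT A.

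C5ar1, the C5a receptor, was near the lower end of what these counts resolve in mice, with 18 to 73 counts per library. It was 0.514, 0.619 and 1.57 CPM (lowest, median and highest) in BALB/c sham, where 4 libraries lay between 0.514 and 0.652 and libraries 50 and 55 at 1.55 and 1.57. It was 1.02, 1.35, 1.74 and 2.04 CPM in BALB/c SNI. In B10.D2 it was 0.676, 0.951, 1.22, 1.27 and 1.32 CPM in sham and 0.910, 1.23, 1.26, 1.75 and 2.04 CPM after SNI. Sham and injured libraries overlapped in both strains. The log2 fold change was 0.75 ± 0.32 in BALB/c and 0.36 ± 0.32 in B10.D2 (edgeR adjusted p = 0.16 and 0.65), and the former passed without sham library 50 (0.998, edgeR adjusted p = 0.036). The strain difference was 0.27 ± 0.31 in sham and -0.12 ± 0.33 after SNI (edgeR adjusted p = 0.63 and 0.85). In rat it was 3.21, 3.60, 5.86 and 6.96 CPM in sham and 5.31, 7.21, 8.06 and 8.78 CPM after SNT, with overlap and a log2 fold change of 0.59 ± 0.27 (edgeR adjusted p = 0.12), and of 0.71 ± 0.31 without sham D and SNT A (edgeR adjusted p = 0.092).

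Male and female mice did not differ past the threshold at any member. Of the 9, 0 were called by edgeR, where 0.259% of features were called, and DESeq2 also called 0 of 9, where it called 1.08%. An unadjusted edgeR p under 0.05 was reached by 3 of 9, Serping1, C3 and C3ar1, all lower in males, where 11.5% of features reached it. C3 had the largest estimate, at -0.63 ± 0.19 on the log2 scale (edgeR adjusted p = 0.19).

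The other genes of the pathway were followed through a list of 45 in mouse, of which 39 passed the filter. After SNI in BALB/c, 7 of 39 rose and 4 fell, and the median log2 fold change was 0.14. Over all features 9.69% were called and 4.79% rose. Colec10, a lectin that recognises sugars and starts the lectin pathway, had the largest change, from 0.0279 to 0.268 CPM in sham to 0.681 to 1.30 CPM after SNI (2.66 ± 0.36, edgeR adjusted p = 2.78e-05). Sham counts were 1 to 9 per library and SNI counts 21 to 50, so Colec10 passed the filter on low counts through its SNI libraries. The size of its change is therefore uncertain. The C1s protease gene C1s1 (0.43), complement receptor 2 (Cr2, 1.14), the alternative C5a receptor C5ar2 (1.41), C4a (0.68) and the membrane attack inhibitor Cd59a (0.33) also rose, with 1 more gene outside the 10 of lowest adjusted p. The fallers were C5 itself (Hc, -0.80), the regulators Susd4 (-0.35) and Csmd3 (-0.54), and the fluid-phase inhibitor clusterin (Clu, -0.26). In B10.D2, 5 of 39 rose and none fell, with a median of 0.14, where 4.62% of all features were called and 2.11% rose. Colec10 went from 0 to 0.151 CPM in sham, at 0 to 5 counts, to 0.749 to 1.12 CPM after SNI (3.06 ± 0.41, edgeR adjusted p = 6.66e-05). The others were C4a (0.78), Cr2 (0.68), C1s1 (0.41) and C1ra (0.47), the C1r protease gene. C4a and C4b share sequence, and whether C4b reads moved the C4a values was not tested.

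Between the strains, the other pathway genes differed in both directions. In sham 7 of 39 were higher in B10.D2 and 5 lower, with a median of 0.13, and after SNI 8 were higher and 6 lower, with a median of 0.064. Over all features 21.3% were called in sham and 20.6% after SNI. Masp2, the protease of the lectin pathway, was 0.866 to 1.51 CPM in BALB/c sham and 0.0724 to 0.163 CPM in B10.D2 sham (edgeR adjusted p = 2.00e-09). C1s2 was 0.799 to 1.67 CPM against 0.121 to 0.239 CPM (edgeR adjusted p = 1.68e-08), and C1rb had 7 to 13 counts against 0 to 2. Over the 20 libraries the lowest count was 2 for Masp2 and for C1s2. Masp2, C1s2 and C1rb passed the filter on low counts through BALB/c libraries, so the size of their strain differences is uncertain. C1s1, a close copy of C1s2, went the other way, at 11.02 to 19.0 CPM against 21.3 to 26.2 CPM (0.67, edgeR adjusted p = 0.000126). Whether reads were lost or exchanged between C1s1 and C1s2 was not tested. C5ar2 was 0.125 to 0.338 CPM against 1.05 to 1.45 CPM (2.31, edgeR adjusted p = 5.12e-08) and C5 (Hc) 1.26 to 1.84 against 2.56 to 3.15 CPM (0.96, edgeR adjusted p = 2.20e-05). Itgax (1.23), the complement receptor 4 subunit, Cd59a (0.35) and the membrane regulator gene Csmd1 (0.13) were also higher in B10.D2 in sham, and Clu was lower (-0.29). Of the 12 genes called in sham, 11 were called after SNI in the same direction, of 14 called there. After SNI the log2 difference was -3.99 for Masp2, -3.03 for C1s2, 1.42 for Hc, 1.24 for C5ar2, 0.65 for C1s1, 0.83 for Itgax, 0.61 for C2, 0.30 for the convertase regulator gene Cd55 and -3.57 for the ficolin gene Fcnb, and C1rb had 7 to 18 counts in BALB/c and 0 to 1 in B10.D2. Over the 20 libraries C5ar2 had 5 to 83 counts and Fcnb 2 to 119. The sizes of their strain differences, and of the C5ar2 rise in BALB/c, are therefore uncertain as well. In the interaction and sex tests 0 of 39 were called by edgeR, with 3 and 8 at an unadjusted p under 0.05. Over all features 0.0162% and 0.259% were called, and 4.23% and 11.5% had such a p. In rat 17 of 41 passed the filter, of which C1r (1.06), C1s (0.97) and Itgax (0.93) rose, the collectin Colec11 fell (-0.90), and the median was 0.47. Over all rat features 27.5% were called. Without sham D and SNT A the values of these 4 genes were 1.30, 1.25, 1.15 and -1.23. Then 8 of the 17 rose and 1 fell, where 43.9% of all features were called.

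For each member the 2 features with the most similar pattern across the 20 mouse libraries were found, by Pearson's r of log2(CPM + 1) among the 18593 features whose mean reached 1 CPM. These values are a description, since the libraries share strain and injury. C1qa varied most like C1qc (r = 0.956) and the macrophage receptor gene Csf1r (0.952), and C1qc like Unc93b1 (0.962) and the macrophage marker Adgre1 (0.961). C1qb varied most like Sec24d (0.965) and Trim30a (0.956), and its r with C1qa was 0.861 over all libraries but 0.984 within the 10 BALB/c and 0.954 within the 10 B10.D2 libraries. C4b varied most like C4a (0.962), a close copy that shares sequence with it, and Axl (0.932), a receptor of phagocytes and glia. C3 had the least similar partners, the assembled LncRNA3216 (0.837) and Igsf10 (0.818), and its r with the C1q chains was 0.28 to 0.53 over all libraries, 0.69 to 0.71 within BALB/c and 0.74 to 0.83 within B10.D2. Cfb was paired with Nbl1 (0.888) and Serpinf1 (0.885), and Serping1 with Shisa5 (0.941) and Efemp1 (0.940). The receptors varied with myeloid genes, C3ar1 with Ms4a6b (0.937) and the Fc receptor gene Fcgr3 (0.933), C5ar1 with Ikzf1 (0.913) and the integrin gene Itgam (0.903). Of the assembled long noncoding RNAs, LncRNA7375 alone lay within 50000 bases of a member, at chr17:34762712-34835410 on the minus strand, 18830 bases from C4b and 20964 from Cfb, with 68 to 159 counts per library.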

How the data were processed

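The authors sequenced stranded libraries (ribosome-depleted RNA for mouse, polyadenylated RNA for rat), aligned reads to mm10 and rn6 with STAR and counted them per gene with HTSeq, and the deposited values are raw counts per annotated gene or assembled long noncoding RNA. Their fold change and p-value columns were not used, and only their gene symbols were. The labels give 2 further mouse libraries (sham 59 of B10.D2 and SNI 66 of BALB/c), which the study excluded for poor mapping and which are not analysed here. No library columns were identical.

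Counts were tested with edgeR 4.0.16 in R 4.3.3: filterByExpr, TMM scaling, robust quasi-likelihood fits over all libraries of a species, with 4 group terms and sex in mouse and condition in rat, and Benjamini-Hochberg adjustment over all features. Called means adjusted p under 0.05. SE is the log2 fold change over the root of its F statistic. The script was tested on simulated data. The members and gene lists were chosen with earlier results of these data known. Genes named were all members, then at most 10 other called pathway genes per comparison in order of adjusted p. Alternatives were RLE factors, DESeq2 1.42.0, other filters, no sex term, smaller fits and leaving out each library. A count of 0 in a library allows up to 3 counts, or 0.0716 to 0.100 CPM in mouse and 0.168 to 0.251 CPM in rat, counting error only. Mouse libraries are single animals and rat libraries pools.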

Additional observations from a re-analysis of the deposited data

Results flagged for a closer look

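Of 50 sets of a member in a group of libraries, 4 had a library whose gap to its nearest neighbour was large for the group's range by Dixon's test, which chance gives in about 1 in 20 sets. C3 was 22.4 CPM in B10.D2 sham library 67, where the other 4 lay between 9.53 and 10.9 CPM. In BALB/c sham library 55, Cfb was 1.79 CPM and C3ar1 6.13 CPM, against group medians of 0.868 and 3.31 CPM. In rat sham library D, C1qa was 170.4 CPM, against a group median of 43.5 CPM.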

How the results depend on the processing

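Of 1176 fold changes of members recomputed under the alternatives, 1077 kept their direction and side of the threshold, 47 lost a call, 17 gained one and 35 changed sign, all 35 at values that were not called. The number of members called in BALB/c SNI fell from 2 to 1 without the filter on low counts, without the sex term and in a fit of the BALB/c libraries alone, each time through C3ar1 (edgeR adjusted p = 0.080, 0.076 and 0.070). The number differing between strains in sham fell from 4 to 2 without the filter and without the sex term. In rat it rose from 3 to 6 without sham D and SNT A, an alternative chosen after seeing the data, where features called also rose from 3761 of 13690 (27.5%) to 6096 of 13892 (43.9%). Without 1 library 1464 to 5031 rat features were called, fewest without sham C and most without SNT A. Leaving out 1 library gave 1 to 4 members in BALB/c, 2 each time in B10.D2, 2 to 6 between strains in sham, 2 to 4 after SNI, 0 each time in the interaction and sex tests and 2 to 6 in rat. The BALB/c estimate for Cfb was -0.0040 with RLE factors, -0.0095 without the filter, -0.0047 with at least 10 counts in every library, -0.0026 without the sex term and -0.00049 with DESeq2, and -0.40 to 0.25 without 1 library, and that for B10.D2 was -0.020 to 0.32. Without 1 library the strain difference after SNI was -0.12 to 0.19 for C3 and -0.26 to 0.080 for C5ar1. The interaction without 1 library was -0.26 to 0.058 for C1qa, -0.18 to 0.099 for C1qb (0.0081 without the sex term), -0.22 to 0.14 for C1qc and -0.046 to 0.60 for Cfb. The cause of these changes was not tested. Rat libraries with a shared run label did not deviate together (correlations of -0.29 to 0.050), and with run as a replicate block 2 members were called, without Serping1, and features called fell from 3761 to 2506. Low counts limit Cfb and C5ar1 most, at 18 to 91 per mouse library.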
